A study of Arabidopsis thaliana with 8 samples.

Results

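The floral organ MADS-box genes AG, AP3, PI, SEP1, SEP2 and SEP3 were followed in Arabidopsis shoots with lesions in LHP1, in BPC4 and BPC6 together, or in all 3 of these genes. The members were fixed by name as floral homeotic genes known as Polycomb targets, each with the probe set given for it, and all 6 were found among the 22746 probe sets tested. The plants were untreated Arabidopsis thaliana of accession Columbia (Col-0), 18 days old, and each replicate was a pool of 6 plants. The 8 arrays came from 4 genotypes with 2 biological replicates each: wild type, bpc4 bpc6, lhp1-4 and the triple mutant lhp1-4 bpc4 bpc6. The labels name the alleles without the kind of lesion, and the triple mutant carries the lesions of both other mutants. They do not say whether the shoots of any genotype carried flower buds, and floral marker genes beyond the 6 members were not analysed here. The transcripts of LHP1, BPC4 and BPC6 were not analysed here either, which leaves the genotypes as labelled.

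MADS-box transcription factors set the identity of floral organs by acting in combinations. AP3 and PI form the B function, which with the C function gene AG makes stamens and without it makes petals, AG without the B function makes carpels and it ends the floral meristem, and the SEPALLATA proteins (the E function) join the others in shared complexes. In leaves these genes are kept silent by Polycomb group proteins, which mark chromatin through methylation of histone H3 at lysine residues. LHP1 is a chromodomain protein that binds such marked chromatin, and BPC4 and BPC6 are BASIC PENTACYSTEINE proteins that bind DNA at GAGA motifs. According to the series title BPC6 brings LHP1 to such motifs, so the genotypes ask what each lesion does to such targets alone and in combination.

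Each member was read by 1 probe set and carries the locus tag of its RefSeq entry (assembly TAIR10.1). AG is AT4G18960 (probe set 254595_AT), AP3 is AT3G54340 (251898_AT) and PI is AT5G20240 (246072_AT). SEP1 is AT5G15800 (246531_AT), SEP2 is AT3G02310 (259089_AT) and SEP3 is AT1G24260 (264872_AT). The pairing of probe sets with genes came with the choice of members and was not checked against probe sequences. SEP1 and SEP2 encode closely related proteins, and whether their probe sets share signal was not tested.

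All values below are linear array intensities, normalised by the authors, with those of 1000 or more restored from a form divided by 1000. Intensities of 3 to 10 in the deposited table can be dim signals or values of 3000 to 10000 in that divided form. AP3, PI, SEP1 and SEP3 had such values on every array of wild type and bpc4 bpc6, and SEP2 had 1, of 9.603. That value was read as dim because no array of SEP2 had a value of 1000 or more and it lay within 5-fold of other SEP2 values. For AP3, PI and SEP1 the values of 3 to 10 were also read as dim, although they lay over 5-fold from the others. The rises given for AP3, PI and SEP1 rest on that reading. Over the 8 arrays 50359 values lay between 3 and 10, while 8794 lay between 1 and 3, read as 1000 to 3000. A further 583 lay between 10 and 100 with 3 decimals and were read as 10000 or more. That count leaves out any multiplied value written with fewer decimals. The other reading needs falls of 20.4-fold to 105-fold with the lhp1-4 lesion in these genes, and the dim reading needs rises of 9.55-fold to 49-fold. Among probe sets without any doubt of scale, steps of 20-fold or more in both lhp1-4 against wild type and the triple mutant against bpc4 bpc6 were too rare to separate the readings, with 1 rise among 6202 that were under 100 in wild type and bpc4 bpc6 and 0 falls among 880 that were at 1000 or more there. For steps of 8-fold or more the counts were 9, AG among them, and 0. These probe sets had no deposited value of 3 to 10, where AP3, PI and SEP1 lay in wild type and bpc4 bpc6. The counts therefore cannot weigh the readings of AP3, PI and SEP1. For SEP3 neither reading was chosen, and its direction with the lhp1-4 lesion is given under both.

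Replicates correlated at 0.993 to 0.997 over all probe sets on the log2 scale, and each array had a median intensity of 54.3 to 58.3. A difference was called at a limma adjusted p under 0.05 over all 22746 probe sets. The first question was how the members responded to the lhp1-4 lesion alone. With low values read as dim, all 5 members other than SEP3 rose in lhp1-4 over wild type, by 4.22-fold to 41.4-fold. These are the C function gene AG, both B function genes and the SEPALLATA genes SEP1 and SEP2. Of them, AP3, PI and SEP1 fell if their low values were multiplied by 1000, while the rises of AG and SEP2 did not depend on those values. The median log2 change of the 5 on the dim reading was 3.62, beside -0.07 over all probe sets tested. In this comparison 3.66% of all probe sets rose. Wild type intensities of these genes lay under 20, where signal may be background, so the folds may understate the changes. The sizes are therefore not compared between the members, and the ranks by log2 change given below carry the same limit. In RNA from whole shoots, more cells with a transcript and more transcript per cell cannot be told apart.

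AG had intensities of 16.2 and 11.02 in wild type and 189.6 and 142.5 in lhp1-4. Every lhp1-4 array was above every wild type array. The log2 change was 3.62 ± 0.21 (SE; n = 2 for each genotype, limma adjusted p = 0.000284), a 12.3-fold rise.

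AP3, whose protein acts as a dimer with PI, had intensities of 7.197 and 7.432 in wild type and 199.3 and 202.9 in lhp1-4. Its replicates lay within 1.03-fold of each other in these genotypes, the closest of the members. The log2 change was 4.78 ± 0.08 (limma adjusted p = 9.93e-07), a 27.5-fold rise. PI stood at 8.108 and 8.732 in wild type and at 87.91 and 73.38 in lhp1-4. Its arrays were again separated without overlap. PI rose 9.55-fold, or 3.25 ± 0.14 on the log2 scale (limma adjusted p = 9.16e-05). With their low values read as dim, the partners thus both rose.

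SEP1, an E function gene, rose as well on the dim reading. Its intensities were 6.227 and 7.025 in wild type and 288.1 and 259.9 in lhp1-4, a log2 change of 5.37 ± 0.12 (limma adjusted p = 3.7e-06) or 41.4-fold. SEP2, which acts redundantly with the other SEPALLATA genes in flowers, had the widest wild type spread of the members, with intensities of 9.603 and 18.23. It stood at 63.52 and 48.98 in lhp1-4, and its log2 change of 2.08 ± 0.29 (limma adjusted p = 0.0105) equals 4.22-fold. The call for SEP2 ended when lhp1-4 replicate 1 or 2 was left out, with limma adjusted p = 0.0904 and 0.0509. As read, both lhp1-4 arrays were above both wild type arrays for all 5 members, as they were for 20.9% of all probe sets.

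Ranked by log2 change among the 22736 probe sets that were not open in scale, SEP1 was 6th from the top in lhp1-4 against wild type, AP3 13th and AG 28th. PI was 33rd and SEP2 117th. These members therefore stood at the upper end of all measured changes in this comparison, with the low values read as dim. Their order among themselves is not interpreted, because their wild type values may be background.

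SEP3, the SEPALLATA gene whose protein most widely bridges the other floral MADS-domain proteins, gave deposited values of 4.324 and 4.883 in wild type and of 1.229 and 1.073 in lhp1-4. The lhp1-4 values were read as 1229 and 1073, as all values under 3 in the table were read. With the wild type values taken as dim, SEP3 was 250-fold higher in lhp1-4, a log2 difference of 7.97 ± 0.14 (limma adjusted p = 9.93e-07). With the wild type values taken as 4324 and 4883, it was 4-fold lower, at -2.00 ± 0.14 (limma adjusted p = 0.000652). The direction is not settled by the table itself. Over the 8 arrays, the log2 profile of SEP3 correlated with the mean profile of the other 5 members at r = 0.997 under the dim reading and at r = -0.924 under the other. Those figures only describe the readings, because the arrays fall into a low and a high set. Among probe sets of undoubted scale, 1 of 6202 was higher by 20-fold or more in both comparisons with the lhp1-4 lesion, and 7 of 880 were lower by 2-fold or more. Those probe sets had no deposited value in the range where SEP3 lay in wild type and bpc4 bpc6. The cut-offs also differ from the SEP3 steps against wild type, of 250-fold up or 4-fold down. The counts therefore cannot weigh the readings of SEP3.

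**Figure D1:**
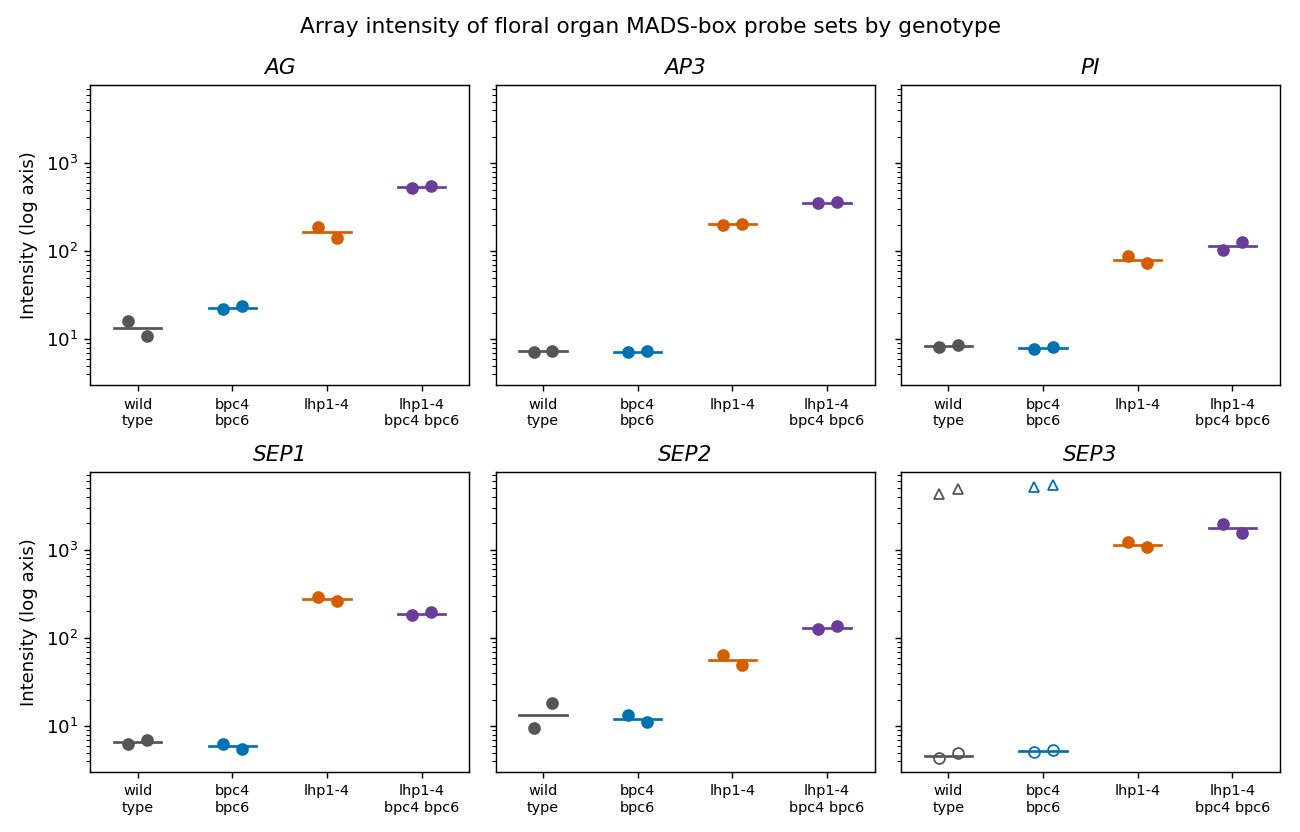
Array intensity (log axis) of the 6 members in wild type, bpc4 bpc6, lhp1-4 and the triple mutant; each point is 1 array and each line the geometric mean of 2 arrays. As read, AG, AP3, PI, SEP1 and SEP2 lie at 5.479 to 24.06 in the first pair of genotypes and at 48.98 to 552.3 in the others. SEP3 is drawn with open circles (values as written) and open triangles (values multiplied by 1000) where its scale is open.

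The bpc4 bpc6 lesions alone were measured next. In bpc4 bpc6 shoots 0 of 6 members passed the test against wild type in limma, with 1 of 6 at an unadjusted p under 0.05. Over all probe sets 1.82% were called in this comparison, so a count of 0 among 6 is near that background. The members' median log2 change was -0.05, beside -0.03 over all probe sets. For AP3, PI, SEP1 and SEP3 this comparison does not depend on how values of 3 to 10 are read, because all arrays of wild type and bpc4 bpc6 share the reading. Apart from SEP3, the members' intensities in both genotypes were under 25 as read, where a fall in transcript may not be visible.

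The member with the unadjusted p under 0.05 was AG. Its intensities were 21.84 and 24.06 in bpc4 bpc6, both above the wild type values of 16.2 and 11.02, and 18.5% of all probe sets were separated in that direction. The log2 difference was 0.78 ± 0.21, with a 95% interval of 0.29 to 1.27 (limma adjusted p = 0.121).

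AP3 stood at 7.156 and 7.287 in bpc4 bpc6, a log2 difference of -0.02 with a 95% interval of -0.21 to 0.17. PI stood at 7.719 and 8.224, and its interval ran from -0.41 to 0.25. SEP1, at 6.312 and 5.479, differed by -0.17, with an interval of -0.44 to 0.10. SEP2 was less tightly bounded, at 13.32 and 10.98, with an interval of -0.82 to 0.56. The deposited SEP3 values of 5.116 and 5.406 were 1.14-fold those of wild type, with an interval of -0.13 to 0.52 on the log2 scale.

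In the triple mutant the members were high again. Against wild type, with low values read as dim, all 5 members other than SEP3 rose, by 9.85-fold to 48.4-fold. In that comparison 11.5% of all probe sets rose. The median log2 change of the 5 was 4.84, beside -0.09 over all probe sets. The rise was 40.3-fold for AG, 48.4-fold for AP3, 13.6-fold for PI, 28.6-fold for SEP1 and 9.85-fold for SEP2. These values share the wild type arrays with the comparison of lhp1-4.

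The lhp1-4 lesion was also compared on the bpc4 bpc6 background. The log2 changes of that comparison use none of the arrays of lhp1-4 and wild type. Their errors and adjusted p values come from the model fitted over all genotypes. Those errors and p values are therefore not independent of the comparison of lhp1-4 with wild type. Against bpc4 bpc6, with low values read as dim, all 5 members rose in the triple mutant, by 10.8-fold to 49-fold. Of all probe sets 10.6% rose there. AP3 reached intensities of 349.6 and 357.8, and its log2 change of 5.61 ± 0.08 (limma adjusted p = 3.39e-07) ranked 6th of 22736 probe sets. AG reached 525.2 and 552.3, which is 4.55 ± 0.21 in log2 change (limma adjusted p = 5.03e-05). SEP1 reached 183.3 and 194.9, at 5.01 ± 0.12 (limma adjusted p = 3.93e-06). PI reached 102.9 and 127.5, or 3.85 ± 0.14 in log2 change (limma adjusted p = 2.38e-05), and SEP2 reached 125.4 and 135.4, or 3.43 ± 0.29 (limma adjusted p = 0.000539). On the dim reading the same 5 members were therefore higher with the lhp1-4 lesion on both backgrounds, as were 2.73% of all probe sets. Read as written, SEP3 was 333-fold higher in the triple mutant than in bpc4 bpc6, and with its bpc4 bpc6 values multiplied by 1000 it was 3-fold lower, at -1.59 ± 0.14 on the log2 scale (limma adjusted p = 0.000562).

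**Figure D2:**
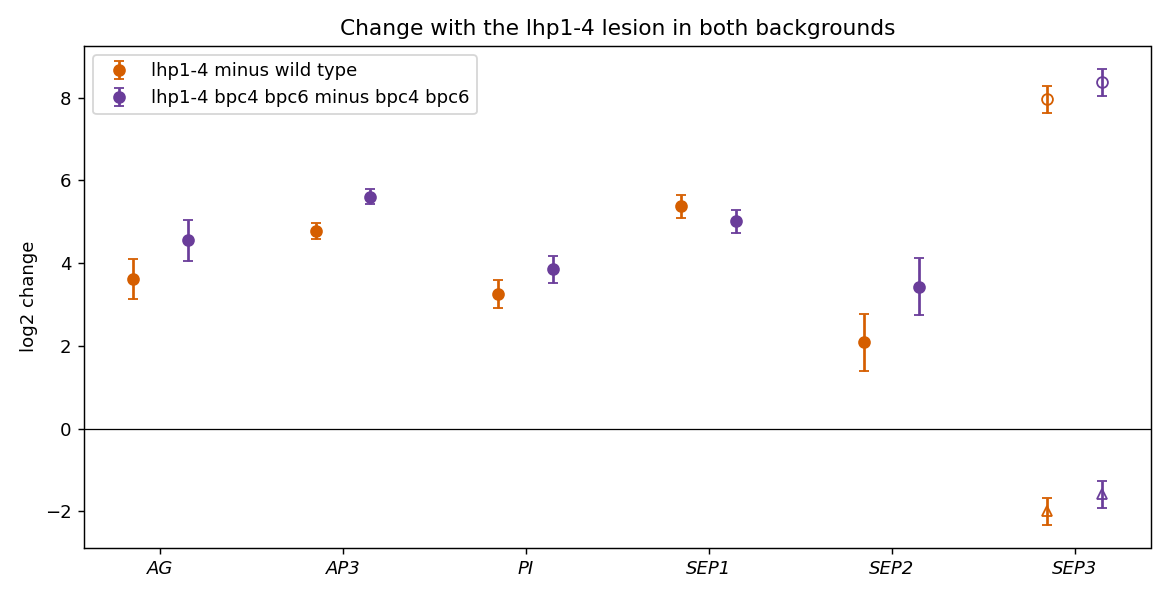
Log2 change of each member with the lhp1-4 lesion, on the wild type background (orange) and on the bpc4 bpc6 background (purple); bars are 95% intervals from limma. The 5 members other than SEP3, with low values read as dim, lie above 0 on both backgrounds, from 2.08 for SEP2 to 5.61 for AP3, and SEP3 is shown under both readings, as open circles (values as written, near 8) and open triangles (values multiplied by 1000, near -2).

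**Figure D3:**
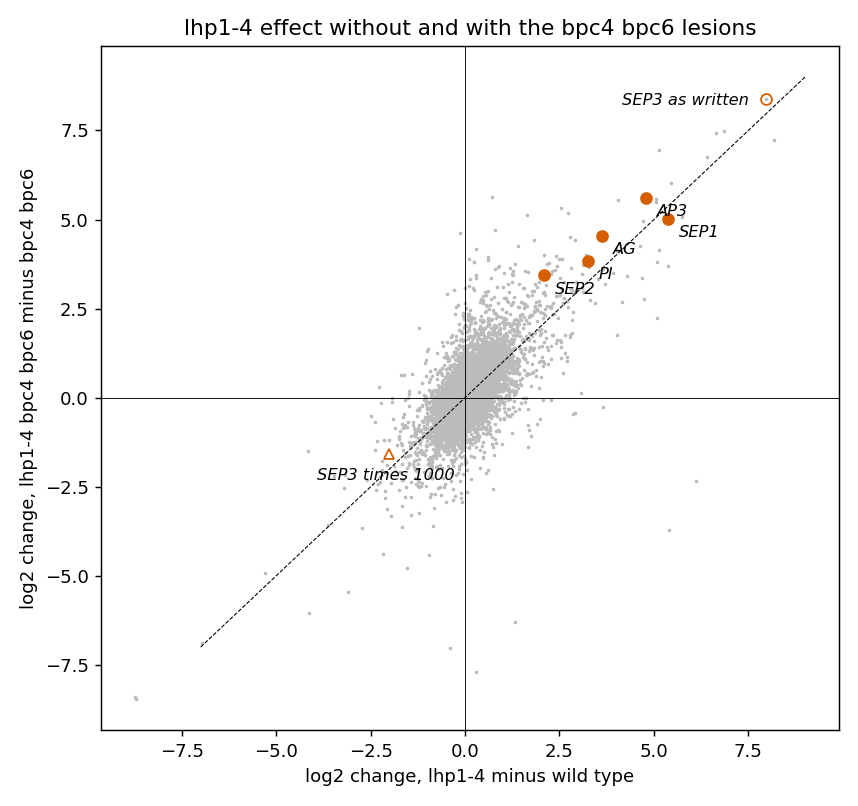
Log2 change with the lhp1-4 lesion without (horizontal) and with (vertical) the bpc4 bpc6 lesions for all 22746 probe sets (grey) and the members (orange); the dashed line marks equal change. AG, AP3, PI and SEP2 lie above the line and SEP1 below it, and SEP3 appears once for each reading.

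The bpc4 bpc6 lesions were then compared on the lhp1-4 background. Between the triple mutant and lhp1-4, AG and AP3 rose, 2 of 6 members, where 2.21% of all probe sets rose and 3.38% were called in either direction. The median log2 change of the 6 was 0.71, beside -0.01 over all probe sets. This comparison does not depend on the reading of SEP3, whose values in both genotypes lie above 1000. AG went from 189.6 and 142.5 in lhp1-4 to 525.2 and 552.3 in the triple mutant, a log2 change of 1.71 ± 0.21 (limma adjusted p = 0.0112) or 3.28-fold. AP3 went from 199.3 and 202.9 to 349.6 and 357.8, or 0.81 ± 0.08 in log2 change (limma adjusted p = 0.00599), a 1.76-fold rise.

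Both calls depended on single arrays, and leaving one out also lowers the degrees of freedom. The call for AG ended without lhp1-4 replicate 2 (limma adjusted p = 0.0874) and without triple mutant replicate 1 or 2 (0.057 and 0.0627), while its log2 change stayed between 1.51 and 1.92. The call for AP3 ended without lhp1-4 replicate 1 or 2 (0.0586 and 0.0623), with a log2 change of 0.80 to 0.83.

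The other 4 members missed the threshold over all probe sets, each at an unadjusted p under 0.05. SEP2 had intensities of 63.52 and 48.98 in lhp1-4 and 125.4 and 135.4 in the triple mutant, a log2 difference of 1.22 with a 95% interval of 0.53 to 1.92 (limma adjusted p = 0.0754). It passed at 0.0448 with only these genotypes in the model. SEP3 had 1229 and 1073 in lhp1-4 and 1954 and 1570 in the triple mutant, a difference of 0.61 with an interval of 0.28 to 0.93 (limma adjusted p = 0.0647). PI had 87.91 and 73.38 against 102.9 and 127.5, with 0.51 and an interval of 0.18 to 0.84 (limma adjusted p = 0.103). In all 5 members with a positive difference, both triple mutant arrays were above both lhp1-4 arrays, as for 21.3% of all probe sets.

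SEP1 was the member with the opposite sign. It stood at 288.1 and 259.9 in lhp1-4 and at 183.3 and 194.9 in the triple mutant, a log2 difference of -0.53 with a 95% interval of -0.81 to -0.26 (limma adjusted p = 0.0593). Both lhp1-4 arrays were above both triple mutant arrays, as for 25.3% of all probe sets. With array weights 5 of the 6 members passed the test in this comparison, 4 higher and SEP1 lower.

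**Figure D4:**
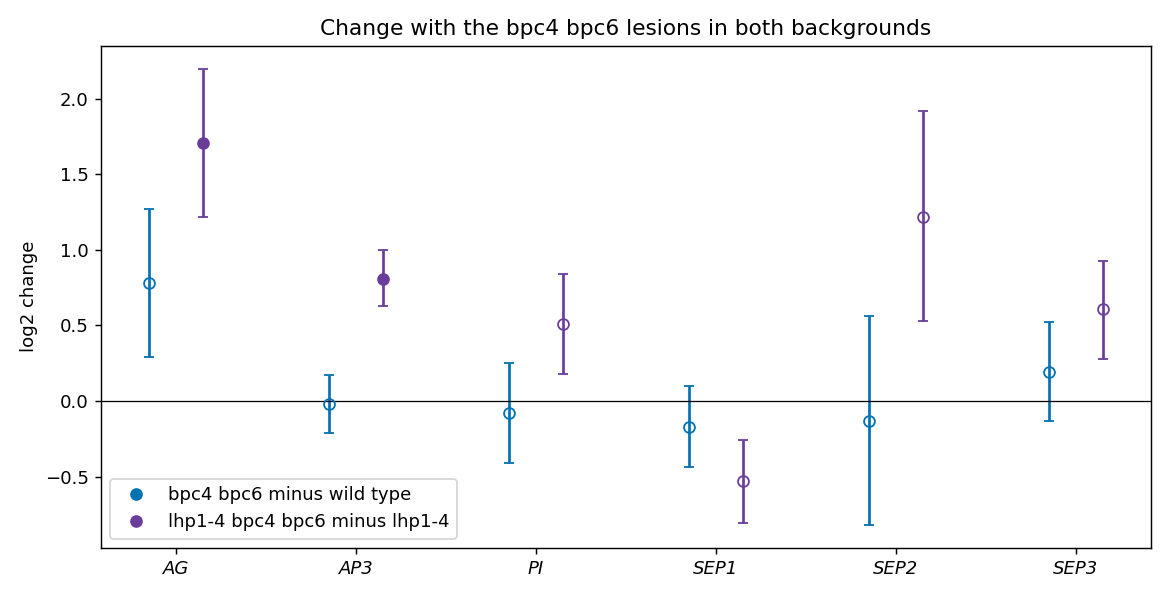
Log2 change of each member with the bpc4 bpc6 lesions, on the wild type background (blue) and on the lhp1-4 background (purple); bars are 95% intervals from limma, and filled points passed the test at an adjusted p under 0.05. On the lhp1-4 background AG (1.71) and AP3 (0.81) are filled, and SEP1 (-0.53) is the member below 0; on the wild type background no point is filled.

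Whether the bpc4 bpc6 lesions acted differently with and without the lhp1-4 lesion was tested by the interaction, the log2 change on the lhp1-4 background minus that on the wild type background. AP3 passed this test, 1 of 6 members, where 2.40% of all probe sets were called in either direction. Its bpc4 bpc6 effect was -0.02 on the wild type background and 0.81 on the lhp1-4 background, an interaction of 0.83 ± 0.11 (limma adjusted p = 0.0186). The wild type background values, of 7.156 to 7.432 as read, may be background, where a change of this size may not be visible. That call ended with an intensity trend in the variance model (limma adjusted p = 0.0716), and in 7 of 8 fits with 1 array left out, whichever array other than wild type replicate 2 was left out, at 0.0517 to 0.103, with values of 0.82 to 0.86.

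AG had an interaction of 0.93 ± 0.29 (limma adjusted p = 0.177), made up of a bpc4 bpc6 difference of 0.78 on the wild type background and 1.71 on the lhp1-4 background. SEP2 had the widest error, with 1.35 ± 0.41 (limma adjusted p = 0.167). PI gave 0.59, with a 95% interval of 0.12 to 1.06, and SEP3 gave 0.41, with an interval of -0.04 to 0.87. The value of SEP1 was -0.36, with an interval of -0.75 to 0.02. The 95% intervals of AG and SEP2 were 0.24 to 1.63 and 0.37 to 2.33. In the interaction 4 of 6 members, AP3, AG, SEP2 and PI, had an unadjusted limma p under 0.05. The share of all probe sets at that limit is not given here. For the members other than AP3 a different bpc4 bpc6 effect on the lhp1-4 background was not shown after adjustment, and the intervals leave room for one.

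Put in order by genotype, AG was highest in the triple mutant, then lhp1-4, bpc4 bpc6 and wild type, with geometric means of 539, 164, 22.9 and 13.4. Of the neighbours tested in that order, the first pair differed and the last did not pass the test. AP3 stood at 354, 201, 7.22 and 7.31 in the same sequence of genotypes, with the last pair level within 1.01-fold. PI (115, 80.3, 7.97 and 8.41) and SEP2 (130, 55.8, 12.1 and 13.2) were also highest in the triple mutant and then in lhp1-4, without a call between these genotypes or between bpc4 bpc6 and wild type. SEP1 had lhp1-4 on top, with 189, 274, 5.88 and 6.61. With low values read as dim, the step between the high and the low genotypes was common to all of these members. For 9.25% of all probe sets every array of lhp1-4 and the triple mutant was above every array of the other genotypes.

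The mean profile of the 6 members, with SEP3 as written, was compared with the 2176 other probe sets whose highest and lowest genotype means differed by at least 1 on the log2 scale and whose scale was not open. The closest was 245842_AT, with r = 0.9974 over the 8 arrays and intensities of 4.823 and 4.445 in wild type, 4.375 and 4.422 in bpc4 bpc6, 150.6 and 158.2 in lhp1-4, and 184.2 and 234.6 in the triple mutant. Its low values were read as dim by the same rule as for AP3. It was also the closest when SEP3 was left out of the mean, at r = 0.9962. Next was 265441_AT, at r = 0.9969, or at 0.996 and behind 1 more probe set without SEP3. It had 18.03 and 16.34 in wild type and 16.45 and 13.78 in bpc4 bpc6. It stood at 1731 and 1722 in lhp1-4 and at 2080 and 3234 in the triple mutant. Its low values and that of 3234 were placed on this scale by the rule described below. The gene names of both probe sets were not analysed here, and a high r over arrays in a low and a high set mostly reflects that step.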

How the data were processed

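RNA from 8 shoot pools was measured on 1-colour arrays, grouped by the sample titles. The authors deposited 1 intensity per probe set and array, made with RMA per the submitters' processing notes, in a version not given in the sources used here. The members, lists and rules were chosen with earlier results of these data known. Deposited values were linear, from 1 to 999.7. A value under 3, or of 10 to 100 with 3 decimals, was multiplied by 1000. Values of 10 to 100 with fewer decimals followed if this brought them within 5-fold of a value multiplied by then in their probe set. Values of 3 to 10 were read only after that step. They were multiplied where they then lay within 2-fold of a value of 1000 or more, in steps, and otherwise kept. In 5007 probe sets all values lay between 3 and 10, which leaves folds unaffected. In 23 probe sets, AP3, PI and SEP1 among them, such values were kept although they lay over 5-fold from the others. In 10, SEP3 among them, they could not be settled and were tested as written. Scaling touched 1767 probe sets, and 1 control probe set was left out. This rule was set after the values were seen, because nearness between genotypes cannot settle a large change.

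Log2 intensities were fitted in limma 3.58.1 (R 4.3.3) with 1 group-means model over 8 arrays (4 residual and 2.84 prior degrees of freedom) and Benjamini-Hochberg adjustment within each of 6 contrasts; errors are moderated standard errors. Precision is limited by the number of arrays. Scripts were tested on simulated data. Scanner files and detection calls were not used here, so dim values may be background, and their folds then understate changes. Named were the 6 members and the probe sets most correlated with their mean, of which 2 are given; other gene lists and cell type markers could not be matched to probe sets and were not used. Alternatives were the scale, filters, normalisation, array weights, trend, genotypes in the model, replicate block and leaving out each array.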

Additional observations from a re-analysis of the deposited data

Results flagged for a closer look

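The effect of the bpc4 bpc6 lesions on AP3 differed between the wild type and the lhp1-4 background by limma's interaction test, with a value of 0.83 on the log2 scale (limma adjusted p = 0.0186), but the call ended in 7 of 8 fits that left out 1 array. AP3 intensities were 7.197 and 7.432 in wild type, 7.156 and 7.287 in bpc4 bpc6, 199.3 and 202.9 in lhp1-4, and 349.6 and 357.8 in the triple mutant. The value does not depend on whether the low intensities are read as dim or multiplied by 1000, because both readings shift wild type and bpc4 bpc6 alike. The wild type and bpc4 bpc6 values may be background if read as dim, where a change of this size may not be visible.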

How the results depend on the processing

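The count of members called (SEP3 left out where its scale is open) stayed at 5 for lhp1-4 and for the triple mutant against wild type, and at 5 for the triple mutant against bpc4 bpc6, under every planned setting that kept all arrays but 1. In that setting, with only probe sets whose every value could be read alone, AG was the 1 member left: it was called in these comparisons and against lhp1-4 (1 each), and the interaction gave 0. Without dim probe sets 1 member was called in bpc4 bpc6 against wild type and 6 in the triple mutant against lhp1-4, but the members pass that filter through the genotypes in which they are high (PI and SEP2 through the triple mutant), so these counts are no support; array weights gave 5 in the latter, and an intensity trend gave 0 in the interaction. Leaving out each array in turn gave 4 to 5 members for lhp1-4 against wild type, 0 to 3 for the triple mutant against lhp1-4 and 0 to 1 for the interaction, with fewer degrees of freedom; the other counts did not move.

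Multiplying such values of 3 to 10 by 1000, an alternative chosen after seeing the data, reversed AP3 (-5.18 in lhp1-4 and -4.37 in the triple mutant against wild type, -4.35 in the triple mutant against bpc4 bpc6), PI (-6.71, -6.20 and -6.12), SEP1 (-4.60, -5.13 and -4.96) and SEP3 (-2.00, -1.39 and -1.59); values as deposited gave SEP3 the same negative values. In bpc4 bpc6 against wild type, AP3 turned to 0.04 after a second quantile normalization, and leaving out each array gave AP3 -0.04 to 0.00 and SEP2 -0.59 to 0.33 (0.01 without bpc4 bpc6 replicate 2).

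With the replicate number as a block the members called were 5, 0, 5, 2, 5 and 1 in the 6 comparisons, as without it, and the block changed no other call of a member. The labels do not say whether same-numbered samples were paired. Deviations of same-numbered arrays correlated at -0.184 to 0.229 between genotypes, which does not settle it.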
